A study of Mus musculus with 7 samples.

Results

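The 10 genes described here, across 7 small RNA libraries of mouse heart mitochondria, encode enzymes of branched-chain amino acid breakdown. They are Bcat2, Bckdha, Bckdhb, Dbt, Ivd, Mccc1, Mccc2, Pcca, Pccb and Acat1, taken by symbol from the authors' table, and all 10 were found among 49584 listed features. The genes were chosen by their place in the pathway, with their counts and fold changes in the knockout comparison already known, so those values are given as a description. The branched-chain amino acids leucine, isoleucine and valine are broken down inside mitochondria, and heart muscle can burn them as fuel. An aminotransferase first makes branched-chain ketoacids, and a large dehydrogenase complex then commits these to oxidation as acyl-CoA. Leucine carbon leaves as acetyl-CoA and acetoacetate, valine carbon as propionyl-CoA, and isoleucine carbon as both acetyl-CoA and propionyl-CoA. All of these enzymes are encoded in the nucleus, made in the cytosol and imported.

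The libraries came from 3 control mice and 4 mice without Tefm in muscle. Tefm encodes an elongation factor for the RNA polymerase of mitochondria. Both groups carried Tefm alleles with a loxP-flanked exon (L/L, labelled Tefm +/+ in controls), and the knockouts (L/L, cre, labelled Tefm -/-) added a cre gene driven by the muscle creatine kinase promoter, a promoter of striated muscle that leaves the other cells of the heart with the factor. The design text counts 4 control mice, of which 3 libraries are analysed here, each library was taken as 1 mouse, and where that does not hold p-values measure only the spread between libraries. The sources used here do not give age, sex or strain.

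A small RNA kit had been used on RNA of crude mitochondria, so each count for these nuclear genes is a short RNA fragment present in the preparation. The origin of these fragments, and whether they come from mature mRNA, was not tested. The libraries held between 973835 and 2570739 counts, and fragments of nuclear protein-coding genes made up from 2.28% of them (knockout 1) to 18.2% (knockout 4). In counts this was 51111, 160267 and 79048 in controls 1 to 3 and 29203, 44615, 72044 and 188642 in knockouts 1 to 4. Within each group, then, the depth at nuclear protein-coding genes differed widely, and raw counts are to be read against it. Tefm itself had 0 to 2 counts in every library, too few to check the labels, and the deletion takes 1 exon only. No molecular identifiers are described, so all intervals on counts cover counting error alone. Cardiomyocyte markers (Myh6, Tnnt2, Tnni3, Actc1, Ryr2, Pln, Myl2 and Mb) were all detected, with 0 of the 8 at zero counts. Markers of liver and neural cells were at or near 0, with summed levels of at most 3.05 and 1.57 CPM, the unit of normalised counts used below (scaled to library size by edgeR's TMM method), and Apoa1, Serpina1a and Snap25 were at 0.

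The 10 enzymes together had 503 counts in the controls and 317 in the knockouts, and Acat1 and Ivd supplied most of them, with 150 and 138 counts in controls and 91 and 50 in knockouts. Per length of annotated exon, Acat1 was at 8.09 ± 0.89 CPM per kb (SD, n = 3) in controls, with every control above every control value of the other enzymes. Ivd followed at 4.83 ± 1.06 and Bckdha at 4.81 ± 0.96, and these did not differ beyond their spread. Pccb was next at 2.57 ± 0.70, below all control values of Ivd and Bckdha, and Dbt was at 1.99 ± 0.53. The lowest levels were those of Bckdhb (1.27 ± 0.91), Mccc2 (1.25 ± 0.47), Bcat2 (1.25 ± 0.18), Pcca (0.74 ± 0.74) and Mccc1 (0.74 ± 0.34). From Pccb downwards each gene overlapped the next in the order, so the lower part of the order is not resolved. Exon lengths are those of GENCODE M21 and run from 1805 bases for Bckdhb to 10952 for Mccc1, and the sources used here do not name the annotation behind the counts. Each length merges the exons of all annotated transcripts of a gene, and which transcripts are present in these libraries was not tested.

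**Figure D1:**
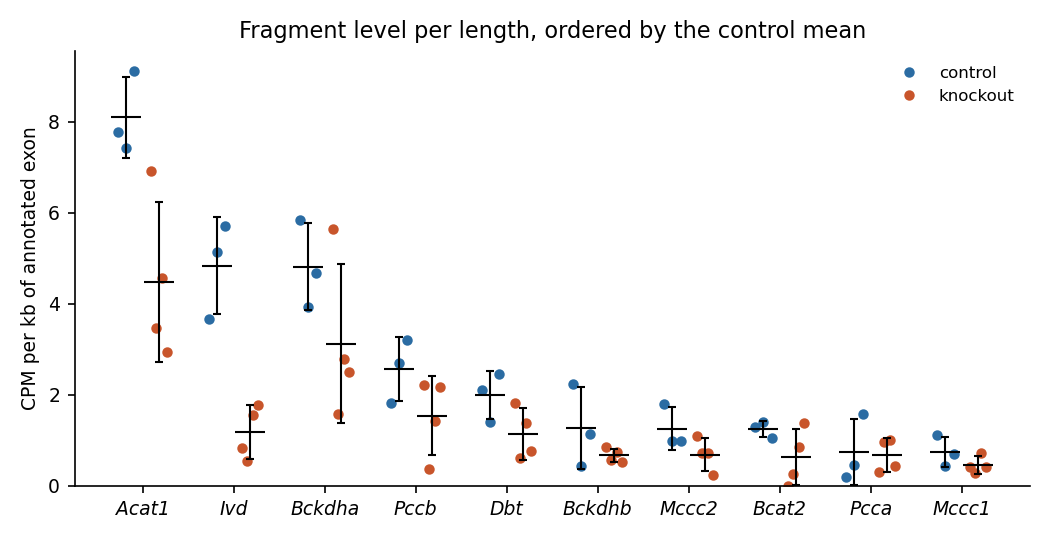
Level of each enzyme in CPM per kb of annotated exon, by library, ordered by the control mean; points are the 3 control and 4 knockout libraries, and bars are mean and SD. Acat1 was highest per length in controls at 8.09, and in knockouts the Ivd mean of 1.18 lay below that of Bckdha at 3.12.

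Subunits of one complex were not equally covered. Bckdha and Bckdhb encode the alpha and beta chains of the dehydrogenase's decarboxylase, which occur in equal number in the enzyme. Counts of RNA fragments do not measure these proteins. Per length, Bckdha had 4.54 times the counts of Bckdhb in controls (95% exact counting interval 2.18 to 10.6) and 4.48 times in knockouts (1.95 to 12.0), with the same order in all 7 libraries. Bckdhb had only 9 counts in controls and 7 in knockouts, and 1171 of the 1899 exonic bases of Bckdha are shared with B3gnt8. Of the propionyl-CoA carboxylase genes, Pcca had 0.273 times the counts of Pccb per length in controls (0.148 to 0.487) and 0.372 times in knockouts (0.203 to 0.672). Per length, Mccc1 had 0.560 times the counts of Mccc2 in controls (0.302 to 1.08) and 0.910 times in knockouts (0.424 to 2.17), and both intervals include equality. Mccc1 was the higher of the pair per length in 0 of 3 controls and 2 of 4 knockouts. Before division by length Mccc1 had more counts, 35 against 16 in controls and 32 against 9 in knockouts, so this order rests on the lengths used.

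In the comparison of knockouts with controls, the mean CPM of all 10 enzymes was lower in knockouts, and Ivd had the lowest ratio. Only Ivd, Mccc1 and Acat1 passed the low-count filter of edgeR, which sets a minimum level within libraries, not only on the sum. Bckdha, with 43 counts in controls and 33 in knockouts, did not pass the filter, while Mccc1, with 35 and 32, did. Of these 3 genes 1, Ivd, passed the test over all genes (Benjamini-Hochberg adjusted p under 0.05 in edgeR's quasi-likelihood test), downwards. Of all 1505 genes tested, 6.98% were called in either direction and 1.73% were called lower. In a fit without the filter, in which all 10 enzymes enter, all 10 log2 fold changes were negative, with a median of -0.80 and a range from -2.01 to -0.25. Over all 15828 features in that fit the median was -0.05 and 51.5% were negative. Ivd was again the only 1 of the 10 called there, where 1.21% of features were called. By ratio of summed counts, scaled to library size, the 10 enzymes lay between 0.286 and 0.873 of control. The counting interval excluded 1 for 4 of them (Ivd, Acat1, Dbt and Bckdha). It leaves out the spread between mice, and the share of all genes whose interval excludes 1 was not counted. Dbt and Bckdha did not pass the test with the filter at a minimum count of 5 (edgeR adjusted p = 0.259 and 0.308). Under scaling to total counts, 4 of the 10 ratios were below 1 and 6 above (Bcat2, Bckdha, Bckdhb, Mccc1, Pcca and Pccb), and the interval excluded 1 for 1 of the 10. Under it the median over all genes tested was 0.89 on the log2 scale, against 0.02 with TMM.

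**Figure D2:**
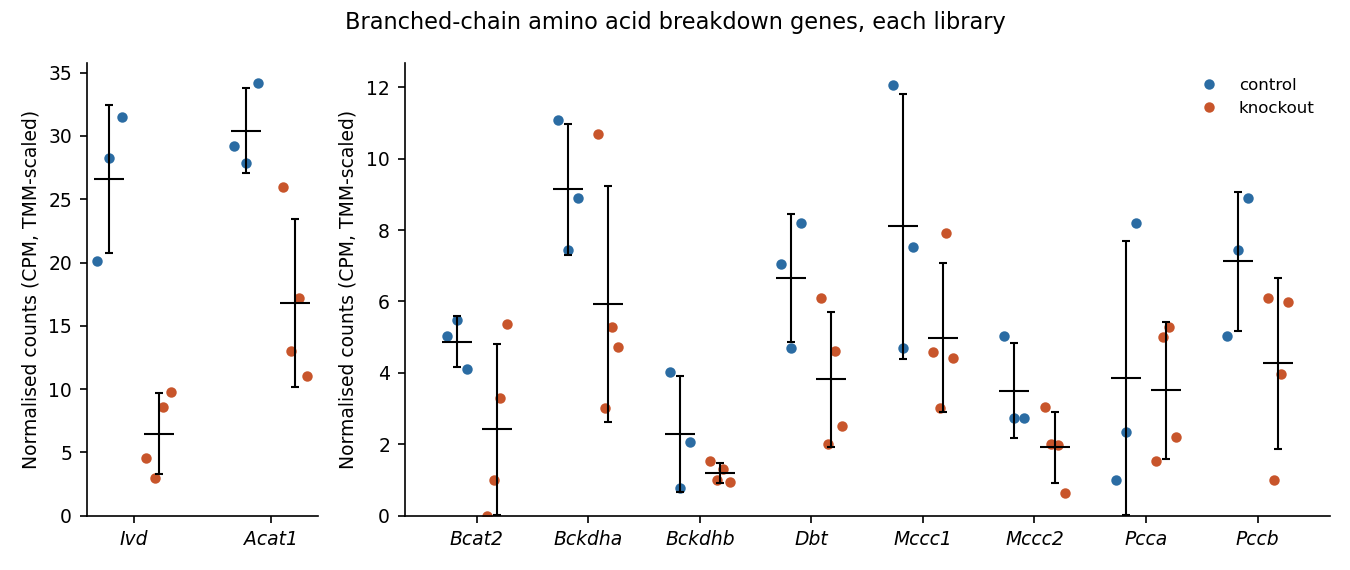
Normalised counts (CPM, TMM-scaled) of the 10 enzymes in each of the 3 control and 4 knockout libraries, with mean and SD as bars; the left panel has its own scale. For Ivd and Acat1 all knockout points lie below all control points, and for the other 8 the groups overlap.

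The first step is transamination. Bcat2 (chromosome 7, 45570153 to 45589711, plus strand, GRCm38) encodes the mitochondrial aminotransferase for branched-chain amino acids and was counted 5, 14 and 6 times in controls 1 to 3 and 0, 1, 5 and 17 times in knockouts 1 to 4. Knockouts 1 and 2 were low for their depth, while knockout 4, at 5.36 CPM, was within the control range of 4.10 to 5.49. Summed counts, 25 and 23, gave a ratio of 0.727 of control (95% counting interval 0.394 to 1.33). The exons of Bcat2 share 622 bases with the antisense gene 0610005C13Rik, which had 0 counts in controls and 1 in knockouts.

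The committed step is the branched-chain ketoacid dehydrogenase complex. Bckdha (chromosome 7, 25629946 to 25658981, minus strand), the alpha chain of its decarboxylase, had 11, 19 and 13 counts in controls and 7, 3, 8 and 15 in knockouts. In CPM, 3 knockouts at 3.01 to 5.28 were below the controls, at 7.45 to 11.1, and knockout 1 was among them at 10.7. The ratio was 0.606 (0.373 to 0.977). Of its 1899 exonic bases, 1171 are shared with B3gnt8 on the opposite strand, and since the sources used here do not state whether counting used strand, reads of these genes cannot be told apart with certainty. B3gnt8 had 2 counts in controls and 3 in knockouts. Bckdhb (chromosome 9, 83925145 to 84124240, plus strand), the beta chain, was near the limit of detection, with 4, 2 and 3 counts in controls and 1, 1, 2 and 3 in knockouts (ratio 0.614, 0.194 to 1.85), so a difference was not detectable at this depth. Dbt (chromosome 3, 116513070 to 116549981, plus strand), the lipoate-bearing acyltransferase at the core of the complex, had 7, 12 and 12 counts in controls and 4, 2, 7 and 8 in knockouts. Its CPM was below the lowest control in 3 of 4 knockouts, and the ratio was 0.535 (0.292 to 0.962). Summed over the 3 subunits, the complex was at 22.1, 12.9 and 19.2 CPM in controls and at 18.3, 6.02, 11.2 and 8.20 CPM in knockouts. Knockout 1 thus lay inside the control range and the other knockouts below it.

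Ivd, isovaleryl-CoA dehydrogenase (chromosome 2, 118861954 to 118882909, plus strand), is a flavoenzyme that oxidises isovaleryl-CoA, the step of leucine breakdown that follows the dehydrogenase complex. It was counted 20, 72 and 46 times in the 3 controls and 3, 3, 13 and 31 times in the 4 knockouts. In CPM the controls were at 20.1, 28.2 and 31.5 and the knockouts at 4.58, 3.01, 8.59 and 9.78. The groups were far apart, the highest knockout being below 10 CPM and the lowest control above 20. All knockouts were below all controls for Ivd and Acat1 among the 3 enzymes tested, as they were for 9.9% of all genes tested. Ivd fell by 1.92 on the log2 scale (SE 0.38, n = 3 and 4), and its summed counts were 0.286 of control (95% counting interval 0.203 to 0.398). In the authors' deposited table, Ivd had a log2 fold change of -1.90 and was the only 1 of the enzymes with an adjusted p under 0.05, where 4.8% of features with an adjusted p were called. DESeq2 run on the same counts called Ivd as well and neither of the other 2, with 15.4% of genes called. The call ended when control 2, control 3 or knockout 1, 2 or 3 was left out, with log2 fold changes between -2.08 and -1.65, in fits that called 0.0%, 0.0%, 4.61%, 1.71% and 2.41% of all genes. It held without control 1 or knockout 4, where 2.18% and 4.5% were called. It also ended under scaling to total counts (-0.84), to microRNA counts (-0.78) or to mitochondrially encoded counts (-0.58), which called 0.731%, 0.0% and 0.532% of all genes. Relative to the median of all genes tested, these last were -1.73, -1.66 and -1.70, against -1.95 with TMM scaling.

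The start region of Ivd is printed with that of Mccc1, the next gene of the leucine branch that passed the filter, to show the promoters of the enzyme that fell and of a neighbour in the pathway that did not pass the test. Each stretch runs from 250 bases before to 50 after the start site in RefSeq (GRCm38.p6), 5′ to 3′ on the strand of the gene, and capitals mark matches to any of 6 motifs on either strand. Ivd lies at chr2:118861744-118862043 (plus strand) and Mccc1 at chr3:36000629-36000928 (minus strand).
Ivd: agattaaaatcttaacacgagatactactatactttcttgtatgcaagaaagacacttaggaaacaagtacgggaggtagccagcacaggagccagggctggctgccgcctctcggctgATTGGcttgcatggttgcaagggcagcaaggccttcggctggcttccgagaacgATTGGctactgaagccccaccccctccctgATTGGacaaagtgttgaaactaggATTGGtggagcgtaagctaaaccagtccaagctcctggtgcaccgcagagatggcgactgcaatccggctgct
Mccc1: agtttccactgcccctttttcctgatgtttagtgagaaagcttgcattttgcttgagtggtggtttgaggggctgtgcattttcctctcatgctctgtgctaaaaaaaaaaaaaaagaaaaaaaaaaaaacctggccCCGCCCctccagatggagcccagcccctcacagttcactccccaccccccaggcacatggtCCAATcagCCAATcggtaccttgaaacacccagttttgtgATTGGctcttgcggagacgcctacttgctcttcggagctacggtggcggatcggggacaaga
The motifs were the GC box GGGCGG, the CCAAT box CCAAT, the E-box CACGTG, the site AAGGTCA bound by estrogen-related receptors, the core TGATGNAA of amino acid response elements and the NRF1 site. Ivd holds 4 matches to CCAAT, all read as ATTGG on the printed strand, and Mccc1 holds 3 and 1 GC box, with no overlap between matches. Of 32851 promoters of this length in the table, 37.4% have at least 1 CCAAT and 3.37% have 3 or more. Of the 10 enzymes 8 matched the table, and CCAAT occurred in 5 of them, the GC box in 3, the E-box and the NRF1 site in 1 each, and AAGGTCA and TGATGNAA in 0, against 35.7%, 7.15%, 4.60%, 4.72% and 3.97% of all promoters for the last 5 motifs. An enzyme is counted if any of its entries has the motif (11 entries for the 8 enzymes), while the percentages are per single promoter. Both the counts and the percentages are matches of letters within the window and say nothing of binding.

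Methylcrotonyl-CoA carboxylase, a biotin enzyme of 2 kinds of chain, takes the product of Ivd. Mccc1 (chromosome 3, 35959312 to 36000678, minus strand), its biotin-carrying alpha chain, had 12, 12 and 11 counts in controls and 3, 3, 12 and 14 in knockouts. In CPM this was 12.1, 4.71 and 7.53 against 4.58, 3.01, 7.93 and 4.42. The groups overlapped, with knockout 3 above 2 of the controls. The log2 fold change was -0.56 (SE 0.46) and did not pass, and it was positive under scaling to total counts, microRNA counts or mitochondrially encoded counts. Mccc2, the beta chain, had 5, 7 and 4 counts in controls and 2, 2, 3 and 2 in knockouts, a ratio of 0.444 (0.173 to 1.07). Its identifier has another version in GENCODE M21, so no position is given, and the exon length used above is that of the version there. The exons of Mccc1 overlap 3 genes of the opposite strand, of which Mccc1os had 2 counts in controls and 0 in knockouts and the others 0 in both. Counts of Ivd relative to the summed counts of both carboxylase genes were 1.18, 3.79 and 3.07 in controls and 0.600, 0.600, 0.867 and 1.94 in knockouts, so only knockout 4 was within the range of the controls.

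Propionyl-CoA carboxylase, the other biotin enzyme of the pathway, carries valine and isoleucine carbon towards the citric acid cycle. Pcca (chromosome 14, 122534324 to 122891100, plus strand), its alpha chain, had 1, 6 and 12 counts in controls and 1, 5, 8 and 7 in knockouts. Its ratio of 0.873 (0.447 to 1.72) was the closest to 1 of the 10 enzymes, and 0 of the knockouts were below the lowest control in CPM. Pccb (chromosome 9, 100982032 to 101034898, minus strand), the beta chain, had 5, 19 and 13 counts in controls and 4, 1, 6 and 19 in knockouts (ratio 0.641, 0.382 to 1.07). Pcca shares 241 exonic bases with Ggact on the opposite strand, which had 0 counts in controls and 4 in knockouts. The 2 subunits together were at 6.04, 9.80 and 17.1 CPM in controls and 7.64, 6.02, 9.25 and 8.20 in knockouts, with the groups overlapping.

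Acat1 (chromosome 9, 53580522 to 53610382, minus strand), the mitochondrial acetoacetyl-CoA thiolase, closes isoleucine breakdown and also acts on ketone bodies. It had 29, 71 and 50 counts in controls and 17, 13, 26 and 35 in knockouts. In CPM the controls were at 29.2, 27.8 and 34.2 and the knockouts at 26.0, 13.1, 17.2 and 11.04. All knockouts were below all controls, though knockout 1 only narrowly. Per 10000 nuclear protein-coding counts the groups overlapped, with controls at 5.67, 4.43 and 6.33 and knockouts at 5.82, 2.91, 3.61 and 1.86. The log2 fold change of -0.89 (SE 0.33) did not pass over all genes, and it was 0.01 under scaling to mitochondrially encoded counts, 1.12 below the median of all genes in that fit. Summed counts were 0.479 of control (0.365 to 0.626). When a covariate for library composition was fitted (how many microRNA and snoRNA counts a library had for each protein-coding count, as log2), which called 24.7% of all genes, 2 enzymes were called, Ivd and Acat1, both lower. In that fit Acat1 no longer passed without control 2 or knockout 2, 3 or 4, where 11.7%, 13.5%, 16.0% and 15.1% of all genes were called. It passed without control 1, control 3 or knockout 1 (19.8%, 14.8% and 24.4%), and Ivd passed in all of these.

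Ratios within a library do not depend on scaling between libraries. Per 10000 fragments of nuclear protein-coding genes, the 10 enzymes had 19.4, 14.6 and 21.5 counts in controls and 14.4, 7.62, 12.5 and 8.005 in knockouts. Every knockout was below every control, by a small margin between knockout 1 and control 2, and the mean log2 ratio differed by -0.84, from -9.10 ± 0.29 (SD, n = 3) to -9.93 ± 0.46 (SD, n = 4). Ivd was at 3.91, 4.49 and 5.82 in controls and at 1.03, 0.672, 1.80 and 1.64 in knockouts, again with no overlap. How many genes or sums of genes separate on this base was not counted. Without Ivd, the other 9 enzymes were at 15.5, 10.1 and 15.7 in controls and at 13.4, 6.95, 10.7 and 6.36 in knockouts, with overlap. The 7 enzymes below the filter overlapped too, at 4.93 to 7.97 in controls and 3.36 to 6.51 in knockouts. The separation of the 10 enzymes and of Ivd did not hold with all counts of a library as denominator. On that base the 10 enzymes had 151 of 1034099 counts in knockout 4 and 99 of 1560798 in control 1. Ivd had 31 and 20 counts in these libraries, and the mean log2 ratio of the 10 enzymes differed by -0.43. As a share of the counts of the 10 enzymes, Ivd held 20.2% (95% Wilson interval 13.5 to 29.2), 30.8% (25.2 to 37.0) and 27.1% (20.9 to 34.2) in controls 1 to 3. In knockouts 1 to 4 it held 7.14% (2.46 to 19.0), 8.82% (3.05 to 23.0), 14.4% (8.64 to 23.2) and 20.5% (14.9 to 27.7), so knockout 4 reached the level of control 1.

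**Figure D3:**
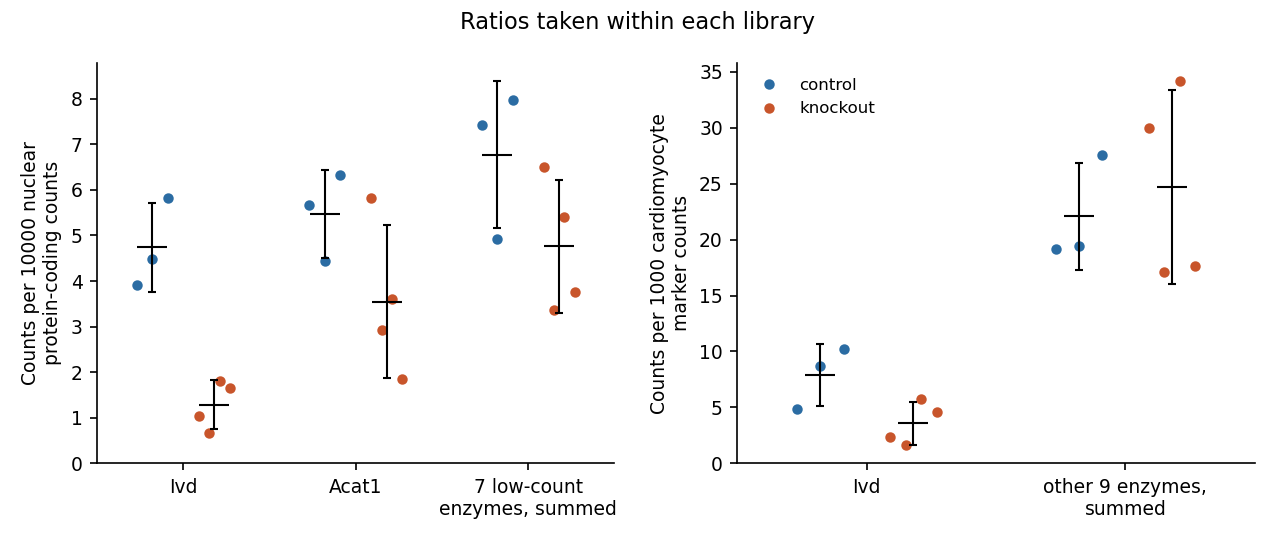
Counts of Ivd, Acat1 and the 7 low-count enzymes per 10000 nuclear protein-coding counts (left), and of Ivd and the other 9 enzymes per 1000 cardiomyocyte marker counts (right), in 3 control and 4 knockout libraries with mean and SD. On the left Ivd is at 3.91 or more in controls and at 1.80 or less in knockouts, and on the right the other 9 enzymes overlap between groups.

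Markers of heart muscle cells moved with these values. The 8 cardiomyocyte markers summed to between 3076 and 4141 CPM in controls and between 1488 and 2145 CPM in knockouts, with no overlap, and all 8 had negative log2 fold changes (median -1.03), of which 0 passed the test (6.98% of all genes did). In RNA of a tissue preparation, fewer cells of a type and less RNA per cell cannot be told apart. Per 1000 counts of these markers, Ivd was at 4.86, 8.65 and 10.2 in controls and at 2.31, 1.65, 5.77 and 4.56 in knockouts, so knockout 3 lay above control 1 and the others lay below all controls. On that base the other 9 enzymes were at 19.2, 19.5 and 27.6 in controls and 30, 17.1, 34.2 and 17.6 in knockouts, and the groups overlapped. Endothelial markers were at 94.6 to 171 CPM in controls and 42.2 to 116 in knockouts, fibroblast markers at 235 to 413 and 194 to 584, and white blood cell markers at 24.2 to 34.9 and 9.91 to 18.9, the last without overlap. Of these lists only 1 gene passed, Cd74 of white blood cells, which fell, and S100a8 was at 0 in all libraries. Skeletal muscle markers were at 97.8 to 120 CPM in controls and 70.3 to 132 in knockouts, and erythroid markers at 11.4 to 19.2 and 5.02 to 18.3. The part of any of these cells in the differences of the enzymes was not tested.

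Further genes of the pathway and its control were taken from a list of 30, of which 12 passed the low-count filter and 0 passed the test in either direction (3 at an unadjusted p under 0.05 in edgeR, and 2, Acaa2 and Hadh, called by DESeq2, both lower). Over all 1505 genes tested, 353 were at an unadjusted p under 0.05 in edgeR, and DESeq2 called 231, 100 of them lower. The median log2 fold change of the 12 pathway genes was -0.42, with 9 negative and 3 positive, against 0.02 over all genes tested. Under scaling to total counts 11 of the 12 were positive, as were 1327 of all 1505 genes tested. The median there was 0.39 for the pathway genes and 0.89 over all genes tested. Acaa2, a thiolase, had the lowest value at -1.12 (SE 0.33, edgeR adjusted p = 0.0853), followed by Hadh, a hydroxyacyl-CoA dehydrogenase, at -0.84 (SE 0.34, edgeR adjusted p = 0.176). Acadsb, which oxidises the acyl-CoA of isoleucine and so stands beside Ivd, had -0.78 (SE 0.40). Mut, the methylmalonyl-CoA mutase after propionyl-CoA carboxylase, had -0.63 (SE 0.31), and Echs1, the short-chain enoyl-CoA hydratase, -0.50 (SE 0.30). The remaining negative values followed in order of size. Aldh6a1, a dehydrogenase of valine breakdown, was at -0.48 (SE 0.54), near the value of Echs1. Oxct1, which activates acetoacetate, was at -0.36, Hibadh, of the valine branch, at -0.27 and Acadm at -0.12. Hadhb and Hadha, the subunits of the mitochondrial trifunctional protein, were on the positive side, at 0.56 (SE 0.23, edgeR adjusted p = 0.201) and 0.48 (SE 0.34). Dld, the dihydrolipoamide dehydrogenase that the branched-chain complex shares with others, was at 0.17 (SE 0.24).

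The control of the dehydrogenase complex and the import of its substrates lay among the 18 listed genes below the filter. Bckdk, the kinase that switches the complex off, had 6, 11 and 6 counts in controls and 2, 1, 8 and 15 in knockouts, a ratio of 0.893 (95% counting interval 0.490 to 1.64). Ppm1k, the phosphatase that switches it on, had 8, 19 and 13 counts in controls and 1, 1, 3 and 13 in knockouts. Its CPM was 7.45 to 8.89 in controls and 1.004 to 4.10 in knockouts without overlap, and the ratio was 0.356 (0.192 to 0.635). Slc7a5 and Slc3a2 encode the chains of a plasma membrane carrier that brings leucine and other large amino acids into cells. Slc7a5 had 2, 2 and 2 counts in controls and 3, 6, 18 and 46 in knockouts, a ratio of 9.61 (4.21 to 27.0), and Slc3a2 had 1, 7 and 3 counts and 2, 7, 11 and 36, a ratio of 4.02 (2.08 to 8.51). In CPM all knockouts were above all controls for both genes. The share of genes below the filter that separate in either direction, as these and Ppm1k do, was not counted. With the filter at a minimum count of 5, where 3.35% of genes were called, Slc7a5 rose (log2 fold change 2.94, SE 0.53, edgeR adjusted p = 0.0233) and entered through its knockout counts. In that fit Ppm1k (log2 fold change -1.63, SE 0.39, edgeR adjusted p = 0.0541) and Slc3a2 (1.82, SE 0.45, edgeR adjusted p = 0.0595) did not pass. Slc3a2 also entered through its knockout counts, and Ppm1k through its control counts. Each of these genes thus entered through the group where it is higher, so its test values are a description only. Bcat1, the cytosolic aminotransferase, had 0 counts in all controls and 0, 3, 2 and 6 in knockouts. With the control group set to a floor of 3 counts the ratio would be 2.90, a value fixed by that floor and not a limit of an interval. Mcee, the epimerase between propionyl-CoA carboxylase and Mut, had 4, 3 and 3 counts in controls and 0, 1, 0 and 1 in knockouts. Slc25a44, the mitochondrial carrier for branched-chain amino acids, had 4 counts in controls and 12 in knockouts (ratio 2.37, 0.718 to 10.1). The other genes below the filter had at most 25 counts in either group.

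**Figure D4:**
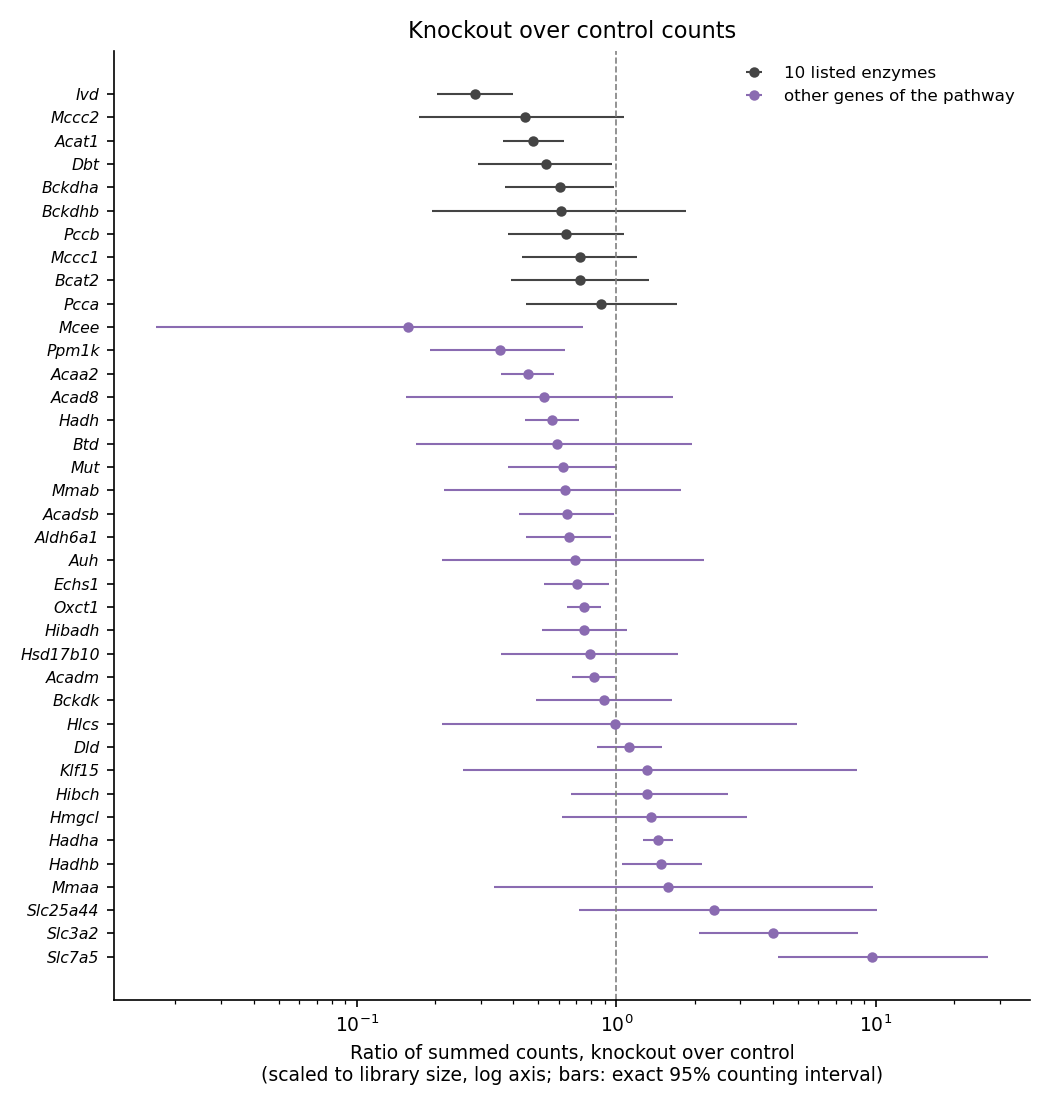
Ratio of summed counts, knockout over control, scaled to TMM library size (log axis), with exact 95% counting intervals that do not include the spread between mice; grey points are the 10 enzymes and violet points other genes of the pathway with counts in both groups and more than 3 in at least 1. The 10 enzymes lie between 0.286 (Ivd) and 0.873 (Pcca), and Slc7a5 is farthest to the right at 9.61.

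Beside 2 other oxidation pathways of the mitochondrial matrix, the values ran as follows. Of 19 genes of fatty acid oxidation, 16 were tested, 2 were called lower (Cpt2 and Eci1, named after their values were seen) and 0 higher, and the median was -0.56 (0.31 under scaling to total counts). Over all genes tested 1.73% were called lower. Of these fatty acid oxidation genes DESeq2 called 4, all lower, where it called 231 of all 1505 genes, 100 of them lower. In edgeR 0 of them were called under scaling to total, microRNA or mitochondrially encoded counts, or without a filter. The same held when any library other than knockout 1 was left out (1 without knockout 1). Of 22 genes of the citric acid cycle and pyruvate dehydrogenase, 20 were tested and 0 called (4 at an unadjusted p under 0.05 in edgeR, and 1 called by DESeq2), with a median of -0.18 (0.67 under scaling to total counts). Over all 1505 genes, 353 were at an unadjusted p under 0.05 in edgeR. The gene of the cycle list called by DESeq2 was lower. With the composition covariate, 2 genes of the cycle list were called, both higher, and 4 of fatty acid oxidation, all lower. That fit called 371 of all 1505 genes, 196 higher and 175 lower. The 3 tested branched-chain enzymes had a median of -0.89 (-0.18 under scaling to total counts), some genes such as Hadhb stand in more than 1 list, and no difference between the lists was tested. Of the 1502 other genes tested, the 5 whose log2 CPM followed the summed enzymes most closely over the 7 libraries were Slc25a20 (Pearson r = 0.979), Ak1 (0.976), Hadh (0.949), Ptp4a3 (0.945) and Gbas (0.942). These values describe 7 points that share 2 groups and library composition, and high values arise when the best of many genes are picked.

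**Figure D5:**
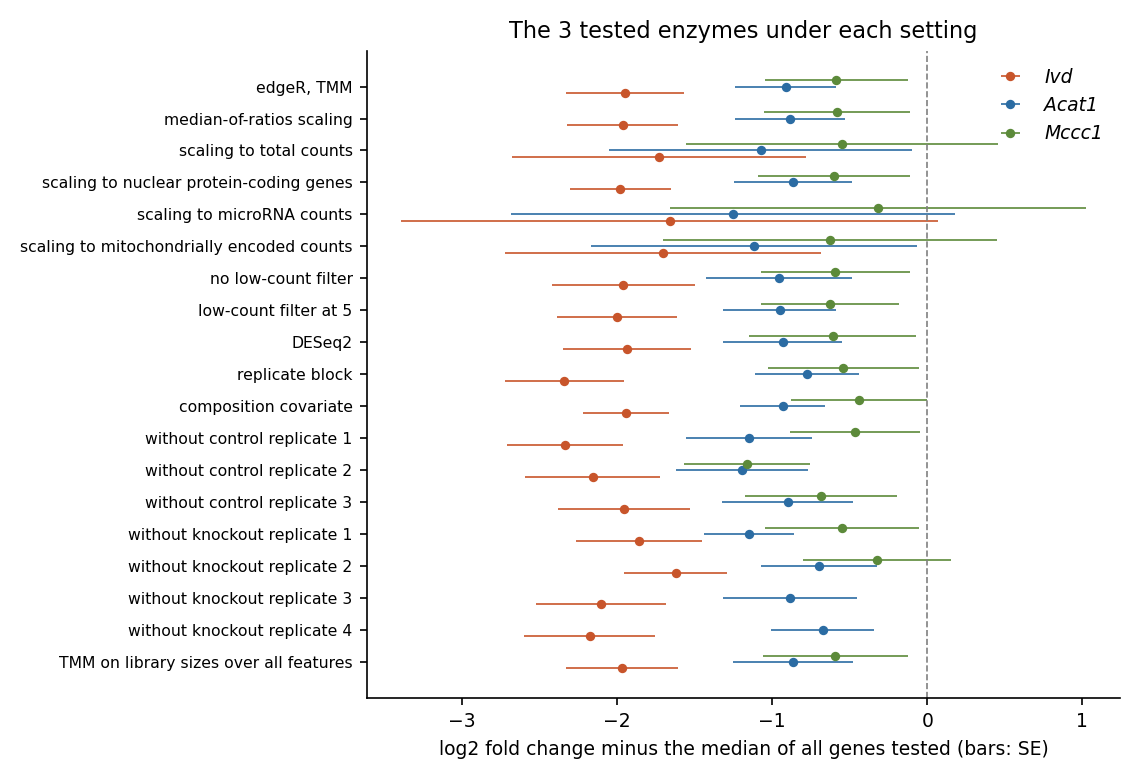
Log2 fold change of Ivd, Acat1 and Mccc1 minus the median of all genes tested, with SE, under edgeR with TMM scaling and each alternative except the composition covariate with a library left out; Mccc1 has no value where it did not pass the filter. Ivd lies between -2.34 and -1.62 in all settings shown, below Acat1 and Mccc1 in each.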

How the data were processed

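Single-end MiSeq libraries had been prepared with Illumina's small RNA kit from crude heart mitochondria of 3 control and 4 knockout mice, per the labels. Raw counts per gene were deposited by the authors, and the normalised files were not used. The submitters' processing notes name DESeq2 1.14.1, featureCounts, Bowtie2, cutadapt 1.10, SAMtools 1.3.1, R 3.3.2, bedtools and build mm10, with no roles. The sources used here do not give the annotation release, the strand setting or the handling of multi-mapped reads. The authors' deposited table holds p-values, a Wald score, a log2 fold change that the values show to be moderated towards 0, and a mean signal, per the file headers. It gave the gene symbols.

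The test was that of edgeR 4.0.16 (R 4.3.3) on raw counts (default low-count filter, minimum count 10; TMM on the 1505 genes kept; quasi-likelihood test, 2 groups, two-sided; Benjamini-Hochberg over all genes, threshold 0.05). CPM are scaled to TMM library sizes. The SE is the log2 fold change over the root of its F statistic. Ratios of summed counts have exact 95% intervals. The procedure was tested on simulated data. Gene models are GENCODE M21 (GRCm38), where 9 of the 10 enzymes had the same identifier version. No pair of libraries held identical values.

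The members and lists were chosen with earlier results of these data known. Named are Tefm, the 10 members, all listed pathway genes that pass the filter, and the 5 genes most like the summed members. Pathway genes below the filter, overlapping genes and the ratios to cardiomyocyte markers were chosen after their values were seen. The list of 31 pathway names includes an older and a newer name of Mut, so 30 were found. Alternatives were other scalings and filters, DESeq2 1.42.0, a replicate block, a composition covariate and each library left out. Settings added after the data were seen were that covariate with each library left out, TMM on library sizes over all features, and other scalings of the ratios.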

Additional observations from a re-analysis of the deposited data

Results flagged for a closer look

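Of 30 groups of 4 knockout values checked for a library far from the others, 1 was found, and chance alone marks about 1 in 20 such groups. Dld, the dihydrolipoamide dehydrogenase shared by the ketoacid dehydrogenase complexes, was at 25.1 CPM in knockout 2 and at 17.2 to 18.3 CPM in the other knockouts, and the gap to the nearest library was 0.854 of the whole range.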

How the results depend on the processing

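The number of genes called, 105 here, became 11 under scaling to total counts, 0 under scaling to microRNA counts (28 at an unadjusted p under 0.05 in edgeR), 8 under scaling to mitochondrially encoded counts, 192 without a low-count filter, 231 with DESeq2 and 371 with the composition covariate. It ran from 0 (without control 2 or control 3) to 75 when a library was left out. With the covariate and without control 1, 2 or 3 it was 463, 263 or 348, and without knockout 1, 2, 3 or 4 it was 398, 197, 199 or 181. Of the enzymes, 1 was called here, 0 under those 3 scalings and 2 with the covariate, 0 to 1 when a library was left out, and 1 to 2 when that was done with the covariate. Of the pathway genes, 0 were called here, 1 without a filter or with a minimum count of 5, 2 with DESeq2 or the covariate, 0 to 1 without a library and 0 to 4 without a library with the covariate. The log2 fold change of Mccc1 turned to 0.34, 0.56 and 0.50 under scaling to total, microRNA and mitochondrially encoded counts, and that of Acat1 to 0.00815 under the last, where the median of all genes moved to 0.89, 0.88 and 1.12. Ivd was negative under all 25 alternatives, from -2.46 to -0.58, and called under 16 of them. The summed enzymes over nuclear protein-coding counts, -0.84 here, were at -0.43 with all counts as denominator and between -0.999 and -0.693 without a library. The cause of these changes was not tested.

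With the replicate number as a block, 0 genes (338 at an unadjusted p under 0.05 in edgeR) and 0 enzymes were called, and Ivd had -2.32. The deviations of same-numbered libraries correlated at 0.53, -0.804 and 0.319. Of the 3 controls only control 3 correlated best with the knockout of its own number. The labels give a replicate number and no pairing, and these few correlations cannot decide whether same-numbered libraries were paired. Depth limits 7 of the 10 enzymes to counts and intervals.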
